A study of Mus musculus with 15 samples.

Results

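M1P is a cell line recovered from a tumour that grew in the mammary fat pad of a mouse, and it is described here against NMuMG, the line it ultimately derives from. NMuMG is a non-tumorigenic epithelial line from mouse mammary gland, unmodified and never passed through an animal. M1P carries silenced hnRNP E1 and came from a tumour formed by E1KD, the NMuMG line in which hnRNP E1 was silenced, after 1 passage in NOD/SCID mice. The members are the 3 M1P arrays and the 3 NMuMG arrays, 6 of the 15 arrays of the series, taken by sample title and read over all 18193 genes. The other 9 arrays, 3 each, hold E1KD without in vivo selection and 2 lines from lung metastases, L1P after the first lung passage and L2P after the following one. The lines shared 1 growth medium, and 100 ng of total RNA from each sample was labelled for Affymetrix mouse expression arrays.

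Each line is 1 line, and no silenced line with a control vector is among the groups. Silencing of hnRNP E1 and growth in the animal both separate M1P from NMuMG, so their shares in the net difference cannot be told apart from these 6 arrays, and E1KD levels are given where they bear on a gene. Whether the 3 samples of a line were grown apart is not given, and p-values measure the spread between these samples, which may be technical. The NOD/SCID host has mouse stromal, vascular and myeloid cells, and a mouse array reads their RNA like that of the tumour line. In RNA from a whole culture, fewer cells of a kind and less RNA per cell cannot be told apart.

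hnRNP E1, encoded by Pcbp1, is a poly(C)-binding protein that holds certain messages in a translationally silent state in mammary epithelial cells. TGF-beta signalling releases it from messages such as those of Dab2, an endocytic adaptor, and Fam3c, which encodes the secreted protein ILEI, and the cells then undergo epithelial-mesenchymal transition, in which junctions dissolve and mesenchymal genes come on. The release acts on translation, which an array of message levels does not read. Tumour lines recovered from animals carry both the original modification and whatever differs between the recovered cells and the injected ones.

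The values are deposited log2 signals, and every level below is a log2 signal, so a difference of 1 is a 2-fold change. The 3 M1P arrays differed from each other more than arrays of any other line. The median standard deviation of a gene over the 3 arrays was 0.318 in M1P, against 0.155 in NMuMG, 0.152 in E1KD, 0.136 in L1P and 0.192 in L2P. Correlations over all genes were 0.989 to 0.994 among NMuMG arrays and 0.92 to 0.976 among M1P arrays. M1P array 1 stood farthest out, with a correlation of 0.917 to the NMuMG mean against 0.969 for array 2 and 0.977 for array 3. The 3' probe set of the Tfrc control exceeded the 5' one by 1.44, 1.72 and 2.5 in M1P arrays 1, 2 and 3, and by 2.18 to 2.60 in NMuMG, so M1P array 3 lay within the NMuMG range and arrays 1 and 2 below it. The same difference for Gapdh was 0.248, 0.268 and 0.449 in M1P against 0.351 to 0.408 in NMuMG, and for Actb 0.640, 0.683 and 0.769 against 0.816 to 0.98. Arrays 1 and 2 lay below the NMuMG range in all 3 controls, and array 3 above it for Gapdh and below it for Actb. The mean of the spiked poly-A controls was 7.565, 6.95 and 8.161 in M1P arrays 1, 2 and 3, against 6.605 to 7.455 in NMuMG. By that measure array 3 lay farthest above NMuMG. Each M1P array is therefore shown by itself, and each gene was tested again with M1P array 3 as the only M1P array.

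M1P differed from NMuMG in 2153 of 18193 genes at an adjusted p under 0.05 by limma, 11.8% of all genes. Of these, 1324 were higher in M1P, 7.28% of all genes, and 829 were lower, 4.56%. A change of 2-fold or more was seen in 992 of them, 522 higher and 470 lower. The 3 M1P arrays lay entirely above the 3 NMuMG arrays in 3085 genes, 17.0%, and entirely below them in 1527 genes, 8.39%. The count rested heavily on single libraries: it was 5201 without M1P array 3, 1368 without NMuMG array 1 and 1134 without NMuMG array 3, and the 2-fold count without M1P array 3 was 2588. A stricter class is used below: a gene held if it passed in the same direction in the model of all 15 arrays, with the 6 arrays alone, with M1P array 3 as the only M1P array, and without each of the 6 arrays in turn. This class had 421 genes, 259 higher (1.42%) and 162 lower (0.89%), and 388 of them differed 2-fold or more. The model of 15 arrays pools the spread of all lines, which is smaller than that of M1P, so its p-values for M1P can be too small, and 447 of the 2153 genes also passed with the 6 arrays alone. With a single M1P array the test assumes that this array varies like those of the other lines. By the same test M1P differed from E1KD in 27.6% of genes, from L1P in 39.5% and from L2P in 30.4%. E1KD differed from NMuMG in 9.49%, and these comparisons share arrays with each other. Whether M1P was nearer to E1KD or to NMuMG depended on the array. M1P array 1 correlated at 0.867 to 0.902 with E1KD arrays and at 0.902 to 0.928 with NMuMG arrays. For array 2 these were 0.951 to 0.97 and 0.961 to 0.974, and for array 3 0.98 to 0.986 and 0.969 to 0.977. The median difference of all genes was 0.09, and the all-gene medians against the NMuMG mean were 0.25, 0.05 and 0.01 in M1P arrays 1, 2 and 3.

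The targeted gene was low in every M1P array. Pcbp1 read 12.76, 12.72 and 12.57 in NMuMG and 9.98, 10.09 and 9.41 in M1P. All M1P arrays lay more than 2 log2 units below all NMuMG arrays, a 7.25-fold lower signal (log2 difference -2.86 ± 0.22 SE, limma adjusted p = 2.28e-06), and the call held. The E1KD mean was 9.25, and M1P did not differ from it past the test (0.58 ± 0.22, adjusted p = 0.0631). Pcbp1 was the only called gene of 12 measured poly(C)-binding and related hnRNP genes, beside 11.8% of all genes.

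Of 11 measured genes in the list of hnRNP E1 targets and the ILEI, LIFR and STAT3 genes, 1 rose and 2 fell. Over all genes 7.28% rose and 4.56% fell, the shares to set beside this and each later list count. Fam3c, the ILEI gene, read 9.77, 10.03 and 9.69 in NMuMG and 8.20, 8.87 and 8.73 in M1P, and it fell by 1.23 ± 0.16 SE (limma adjusted p = 0.00029, held). Its E1KD mean was 10.13, and M1P was lower than E1KD as well (-1.53, adjusted p = 0.000164). The message of this ILEI gene was thus lower in the tumour line than in both of its predecessors. Dab2 read 3.74, 4.09 and 3.77 in NMuMG and 4.65, 5.02 and 4.08 in M1P, a rise of 0.72 (adjusted p = 0.0392) that did not hold. M1P array 3 lay at the edge of the NMuMG range, and 3 other Dab2 probe sets differed by -0.05, 0.22 and 0.28. Socs3, the feedback inhibitor of STAT3 signalling, fell by 0.92 (adjusted p = 0.035, not held). Lifr, the receptor subunit through which ILEI signals, differed by 0.22 (adjusted p = 0.372), and Inhba, the activin A subunit, by 0.57 (adjusted p = 0.124); neither passed the test.

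The 12 rises with the widest separation were picked for M1P arrays far above NMuMG. Holding and the comparison with E1KD both reuse these M1P arrays, so their counts lean toward M1P by the choice. The NMuMG means of the 12 ran from 2.46 (Lhfp) to 6.54 (Crip2). Genes were ranked by the gap between the nearest M1P and NMuMG arrays among called genes with no overlap, and all 12 rises held. M1P was higher than E1KD in 9 of the 12, where it was so in 3221 of all 18193 genes, and did not pass the test against E1KD in the other 3. Hspb8, a small heat shock protein that works with Bag3 in chaperone-assisted autophagy, read 4.15, 4.0 and 4.24 in NMuMG and 11.34, 10.81 and 10.54 in M1P. That is a 109-fold higher signal (6.77 ± 0.19 SE, limma adjusted p = 1.1e-10), and it exceeded the E1KD mean of 9.38 by 1.52 (adjusted p = 0.000379). Its 2 other probe sets rose by 3.57 and 1.57 in the mean, so the size depends on the probe set. Lhfp, a tetraspan membrane protein gene, read 2.20, 2.37 and 2.81 in NMuMG against 8.46, 9.18 and 9.26 in M1P. Its E1KD mean was 9.20, and M1P and E1KD did not differ past the test (-0.23, adjusted p = 0.46). Tead2, a DNA-binding partner of the coactivator Yap, was alike in this respect: it rose by 5.08 over NMuMG, to 8.82, 8.27 and 8.30, against an E1KD mean of 8.23 (adjusted p against E1KD 0.453). The third such gene was Pde8a, a cyclic AMP phosphodiesterase, at 7.66, 8.91 and 7.75 in M1P and 7.89 in E1KD.

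Other rises were much lower in E1KD than in M1P. Crip1, a cysteine-rich LIM domain protein, read 5.52, 5.62 and 5.80 in NMuMG, 5.31 on average in E1KD and 11.20, 11 and 10.77 in M1P. M1P was 40.6-fold above NMuMG and above E1KD by 5.68 (limma adjusted p = 1.3e-10). The lung lines were at 11.64 and 11.75 on average, so among the 5 lines the low signals were those of the lines never passed through an animal. Crip2, of the same family, went from 6.59, 6.78 and 6.23 to 11.31, 11.11 and 11.22, with 7.74 in E1KD and 9.50 and 9.82 in L1P and L2P. Sigirr, a membrane inhibitor of interleukin 1 and Toll-like receptor signalling, read 10.48, 10.17 and 9.99 in M1P against 4.82, 5.28 and 4.79 in NMuMG and 6.72 in E1KD. Serpinh1, the collagen chaperone Hsp47, rose by 5.07 ± 0.25, from 4.81, 4.92 and 4.55 to 10.26, 9.86 and 9.39. A further Serpinh1 probe set differed by 6.86 in the same direction, and its E1KD mean of 6.59 lay below the M1P signal. Crip2, Sigirr and Serpinh1 were already above NMuMG in E1KD, by 1.205, 1.752 and 1.829, while Crip1 was not (-0.333).

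Ly6e, Defb41 and Ctsh had higher signals in M1P than in any other line. Ly6e, a GPI-anchored surface protein induced by interferon, read 10.99, 10.66 and 9.73 in M1P and 4.09, 4.22 and 3.64 in NMuMG. E1KD was at 6.79, L1P at 5.21 and L2P at 5.07, and M1P exceeded E1KD by 3.67 (limma adjusted p = 8.72e-05). Another Ly6e probe set rose by 2.14 over NMuMG. Ctsh, a lysosomal cysteine protease, read 9.62, 9.15 and 8.34 in M1P and 4.03, 3.42 and 3.08 in NMuMG, with 5.31 to 6.49 as the means of the other 3 lines. Defb41, a beta-defensin gene, read 8.07, 8.15 and 8.58 in M1P, about 5 log2 units above NMuMG, and 5.78, 3.82 and 3.40 in E1KD, L1P and L2P. Hexa, the alpha subunit of lysosomal beta-hexosaminidase, rose 47.4-fold over NMuMG but was near its E1KD mean of 9.15 in M1P array 3 (9.57). Its difference from E1KD passed with 3 M1P arrays (adjusted p = 0.0204) and not with array 3 alone (adjusted p = 0.394).

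**Figure D1:**
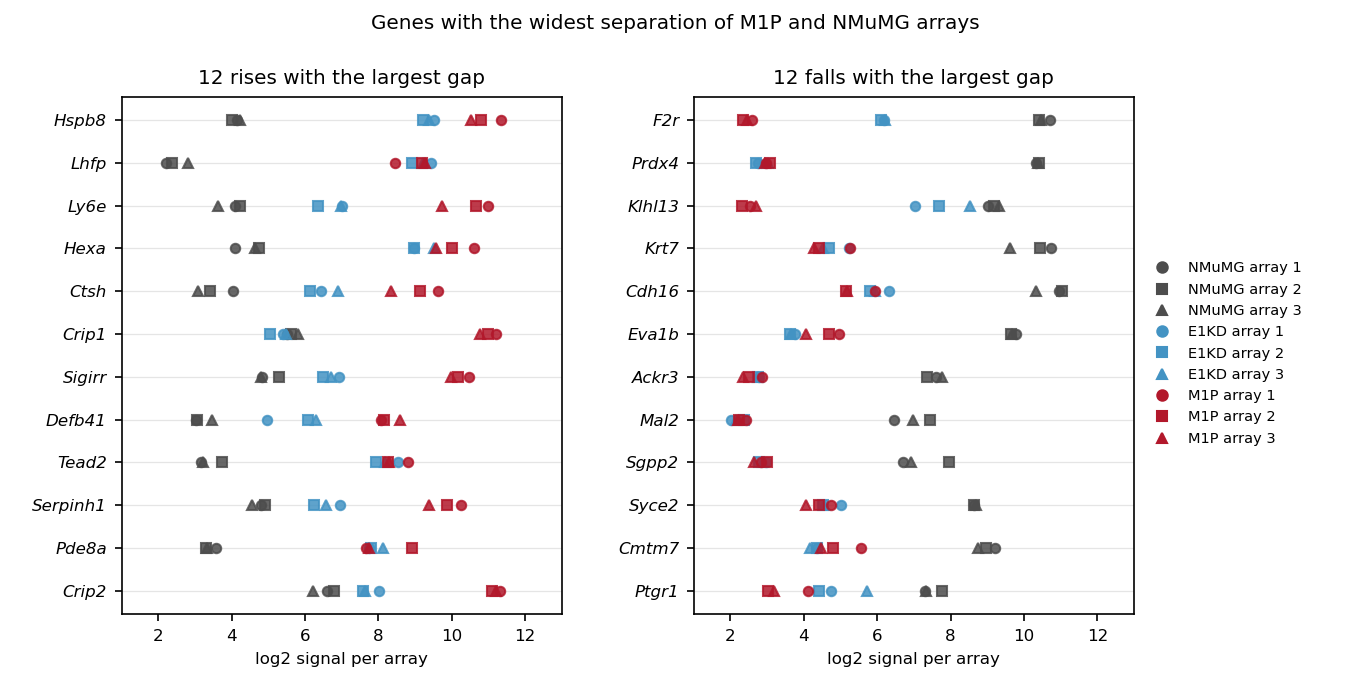
Log2 signal of each NMuMG, E1KD and M1P array (x axis) for the 12 rises and the 12 falls with the widest gap between M1P and NMuMG arrays (y axis, 1 gene a row; point shape gives the array number). Crip1 in E1KD sits with NMuMG near 5.31 while its M1P arrays are at 10.77 and above, and F2r in E1KD sits between, at a mean of 6.17.

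Of the 12 falls with the widest gap, 8 did not differ between M1P and E1KD past the test. They too were picked on the M1P arrays, and 27.6% of all genes differed between M1P and E1KD. The M1P means of the 12 ran from 2.28 (Mal2) to 5.43 (Cdh16), so some ended at the floor of the arrays, near 2.5, and others above it. F2r, which encodes the thrombin receptor PAR1, fell the furthest: 10.72, 10.42 and 10.47 in NMuMG and 2.60, 2.33 and 2.45 in M1P. The signal was 270-fold lower (-8.08 ± 0.12 SE, limma adjusted p = 1.01e-13), in 2 of 2 probe sets (-8.08 and -6.43). E1KD lay between at 6.17, 3.71 above M1P, and both lung lines were at the floor with M1P (2.21 and 2.37). Klhl13, an adaptor of a Cullin 3 ubiquitin ligase, had a similar course: 9.01, 9.19 and 9.32 in NMuMG, 7.74 in E1KD and 2.54, 2.32 and 2.69 in M1P. Ptgr1, a prostaglandin reductase, was the third gene lower in M1P than in E1KD (-1.51, adjusted p = 0.0082). Prdx4, the peroxiredoxin of the endoplasmic reticulum, was already at the floor in E1KD. It read 10.32, 10.42 and 10.39 in NMuMG, 2.83 on average in E1KD and 2.97, 3.08 and 2.94 in M1P. Signals near the floor no longer track message level, so a fold change that ends there may understate the fall.

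The remaining falls held too. Krt7, a keratin of simple epithelia, went from 10.74, 10.43 and 9.63 to 5.27, 4.40 and 4.27. Cdh16, the kidney-type cadherin, went from 10.95, 11.04 and 10.32 to 5.95, 5.16 and 5.19. Mal2, which serves apical transport in polarized epithelial cells, went from 6.46, 7.45 and 6.98 to 2.41, 2.23 and 2.20. These 3 are epithelial genes, and in each the M1P arrays lay far below NMuMG and within 1 log2 unit of the E1KD mean. Ackr3, the scavenging receptor of the chemokine Cxcl12, fell by 5.02 ± 0.17, and Sgpp2, a sphingosine-1-phosphate phosphatase, by 4.37 ± 0.26. Syce2, a gene of the meiotic synaptonemal complex, fell by 4.25 ± 0.19 and Cmtm7 by 4.04 ± 0.24. Eva1b fell by 5.13 ± 0.22 and was the only one of the 12 that was higher in M1P than in E1KD (0.89, adjusted p = 0.0148), a difference that did not pass with M1P array 3 alone (adjusted p = 0.39).

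Cell junction genes were lower in part. Of 32 measured genes of junctions and polarity, 1 rose and 6 fell, where 7.28% of all genes rose and 4.56% fell. The list medians against NMuMG were -0.01, 0.01 and -0.36 in M1P arrays 1, 2 and 3, where those of all genes were 0.25, 0.05 and 0.01. Ocln, the tight junction protein occludin, read 7.99, 8.92 and 8.61 in NMuMG and 6.09, 7.73 and 7.08 in M1P (-1.54, limma adjusted p = 0.0181). Its E1KD mean was 6.82. Marveld2, which seals tricellular junctions, fell by 1.44 (adjusted p = 0.000594), and Llgl2, a basolateral polarity protein, by 1.28 (adjusted p = 0.00849). In E1KD they averaged 2.62 and 7.87, so Marveld2 was higher in M1P than in E1KD (1.52, limma adjusted p = 0.000969). Pard6b, of the apical polarity complex, read 7.73, 7.83 and 7.47 in NMuMG and 6.67, 6.56 and 6.16 in M1P, a fall of 1.21 that held. Crb3, an apical polarity determinant, and Pkp2, a desmosomal plakophilin, are outside the naming rule and were named after their values were seen; they fell by 1.08 and 0.93. Crb3 and Pard6b were the 2 falls that held. Epcam, the only rise, read 4.97 to 5.12 in NMuMG and 5.45 to 5.80 in M1P, a low signal in both, and its direction reversed with another probe set. Cdh1, which encodes E-cadherin, read 10.97, 11.58 and 10.88 against 10.64, 11.24 and 10.15 (-0.46, adjusted p = 0.251), so the ranges overlapped; with M1P array 3 as the only M1P array it was lower by the test (-0.99, adjusted p = 0.0482).

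Krt8 and Krt18, the main keratin pair of luminal cells, were high in both lines, while Krt7, Krt20 and Krt23 fell. Krt8 read 14.11, 14.22 and 14.19 in NMuMG and 14.13, 14.05 and 13.93 in M1P (adjusted p = 0.467), and Krt18 differed by -0.22 (adjusted p = 0.284). Of 20 measured keratins and mammary epithelial markers, 1 rose and 4 fell, with the fall of Krt7 (5.62) given above the largest. Krt20, a keratin of gut and urothelial cells, fell by 1.90 (limma adjusted p = 3.34e-05, held), and Muc1, the apical mucin, by 1.89, from 11.19, 11.26 and 10.91 to 9.89, 9.16 and 8.65. The E1KD means of Krt20 and Muc1 were 8.65 and 9.09. Krt23 fell by 0.66 without holding. Foxa1, a pioneer factor of luminal mammary cells, was the rise: 3.47, 3.41 and 2.81 in NMuMG and 6.03, 6.66 and 7.03 in M1P, a 10.1-fold higher signal that held, with 5.82 in E1KD. Among 12 milk and secretory genes, Csn3, encoding kappa-casein, was the only one called. It read 5.82, 4.76 and 4.69 in NMuMG, 3.78 on average in E1KD and 8.06, 7.57 and 7.67 in M1P, so the tumour line was above both (2.67 over NMuMG, adjusted p = 8.23e-05; 3.98 over E1KD, adjusted p = 8.27e-06).

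**Figure D2:**
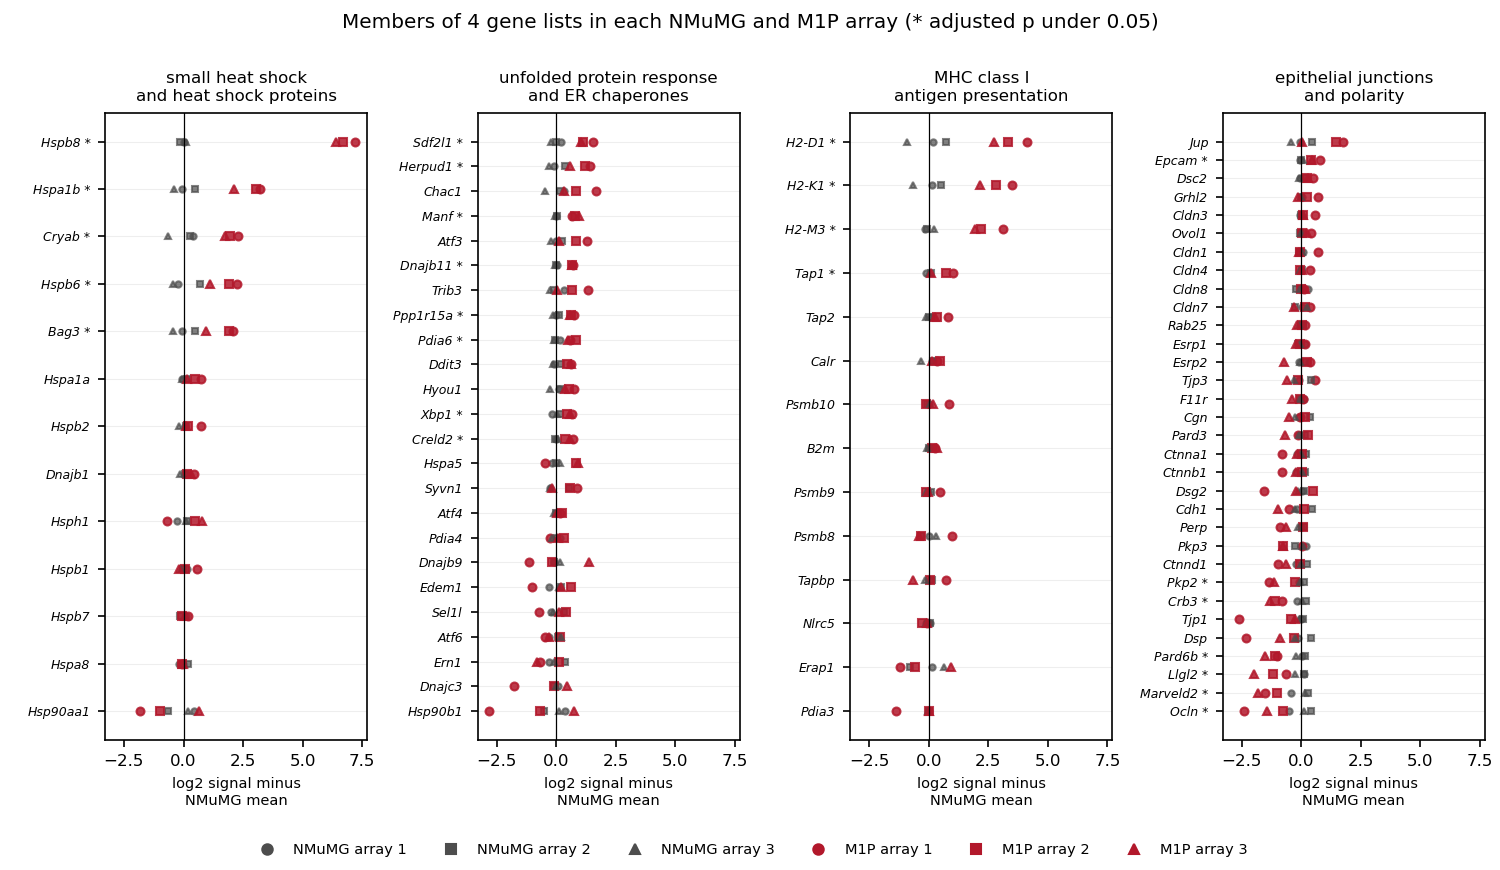
Log2 signal minus the gene's NMuMG mean (x axis) for every measured member of 4 gene lists (y axis) in the 3 NMuMG (grey) and 3 M1P (red) arrays; an asterisk marks an adjusted p under 0.05. Hspb8 stands 6.77 above NMuMG on average, the H2 genes rise in all 3 M1P arrays, and Hsp90b1 shows M1P array 1 far below arrays 2 and 3.

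Mesenchymal genes rose in part and none was called lower. Of 26 measured mesenchymal genes and transcription factors of epithelial-mesenchymal transition, 5 rose, 3 of which held, with list medians of 0.42, 0.16 and 0.12 in the M1P arrays. Among all genes 7.28% rose, and the all-gene medians were 0.25, 0.05 and 0.01. Fn1, fibronectin, read 5.97, 6.36 and 5.66 in NMuMG and 8.79, 9.06 and 8.01 in M1P, a 6.16-fold higher signal (2.62 ± 0.34 SE, limma adjusted p = 0.000242). Its E1KD mean was 9.59, and a further probe set near the floor differed by only 0.07. Twist2, a basic helix-loop-helix factor of mesenchyme, rose by 1.76 and Acta2, smooth muscle actin, by 1.08; both held and both exceeded E1KD (adjusted p = 0.00423 and 0.000878). Snai2, the repressor Slug, read 5.06, 7.15 and 6.78 in M1P against 4.03 to 4.27 in NMuMG, with array 1 nearest to NMuMG, and did not hold. E1KD averaged 7.39 for Snai2. S100a4 rose by 0.58. Vim was high in both lines, 13.30 to 13.36 in NMuMG and 13.44 to 13.59 in M1P (0.19, adjusted p = 0.278). Cdh2, N-cadherin, read 8.16, 9.56 and 9.29 in M1P and 9.08 to 9.28 in NMuMG (-0.15, adjusted p = 0.787), and its sign changed without M1P array 1 (0.27).

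Matrix genes showed large changes in few members. Of 26 collagens and interstitial matrix genes, 3 rose. Col6a1 read 3.74, 3.70 and 4.34 in NMuMG and 7.51, 7.24 and 5.34 in M1P, and Col6a2 5.36, 5.37 and 5.25 against 7.27, 7.18 and 6.21. These are partner chains of collagen VI, and in both the means of the other 3 lines were near NMuMG (3.57 to 3.97 and 5.13 to 5.26). Neither call held, and in both genes M1P array 3 was the lowest of the 3 yet above every NMuMG array. Fbln2, a basement membrane fibulin, rose by 1.83 (limma adjusted p = 0.00124, held), to a mean of 10.23 against 10.47 in E1KD. Of 14 laminin and hemidesmosome genes, Lamb3, a laminin beta chain of the epithelial basement membrane, fell from 10.37, 10.11 and 9.64 to 6.84, 6.71 and 5.76 (-3.60, adjusted p = 5.33e-06). The E1KD mean of Lamb3 was 6.95. Lamb1 fell by 2.06 (adjusted p = 0.00663), both of them held, and Cd151, the tetraspanin partner of laminin-binding integrins, rose by 0.74. Integrin and adhesion receptor genes moved both ways, with 5 of 24 higher and 2 lower. Itgb6, the beta chain of an epithelial TGF-beta-activating integrin, was the only one that held: 7.18, 6.80 and 7.71 in NMuMG and 4.98, 5.86 and 5.34 in M1P. Vcam1 (1.48) and Icam1 (0.91), receptors for leukocyte integrins, Itga7 (0.75) and the collagen receptor Ddr2 (0.74) rose without holding, and Itgav fell by 1.51, though a dimmer Itgav probe set differed by 0.56.

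Of 27 matrix proteases and inhibitors, 2 rose and 3 fell. Mmp13, a collagenase, read 8.90, 8.03 and 9.42 in NMuMG and 3.36, 4.18 and 6.07 in M1P, a fall of 4.25 ± 0.67 that held in spite of an M1P range of 2.71. Timp1, a metalloproteinase inhibitor, fell by 1.43 and Serpinb5, the serpin maspin, by 1.81. Ctsd, the lysosomal aspartic protease cathepsin D, rose by 0.98 and Mmp2, a gelatinase, by 0.85. None of these 4 held.

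Tetraspans had the highest share of called members among the 37 pathway lists, with 5 rises and 3 falls in 12 measured genes. Tm4sf1, a tetraspan of the L6 family, read 12.23, 11.91 and 12.24 in NMuMG and 13.48, 13.34 and 13.24 in M1P, a rise of 1.23 ± 0.18 (limma adjusted p = 0.000496). Its E1KD mean was 6.44, so M1P exceeded the line it came from by 6.91 (adjusted p = 6.62e-11) and the net difference from NMuMG is small beside that step. L1P and L2P were at 11.18 and 13.20. Tspan4 rose by 1.19 and Cd81 by 1.10, both of them tetraspanins with high signals in all lines, and both held. Tspan13 read 7.57, 6.55 and 5.60 in M1P against 3.67 to 4.18 in NMuMG, with no overlap, and did not hold. Tspan15, a partner of the protease ADAM10, fell by 1.30 and held, while Tspan8 (-1.44) and Tm4sf4 (-0.77) fell without holding. In the Ly6 family of 8 measured genes, Ly6f fell by 1.09, next to the rise of Ly6e given above.

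TGF-beta and activin genes moved in both directions, 4 higher and 3 lower of 27, beside 7.28% higher and 4.56% lower of all genes. Among ligands, Tgfb1 rose by 1.35 (limma adjusted p = 0.0112, not held) and Inhbb, the activin B subunit, fell by 1.32. Tgfbr3, the coreceptor betaglycan, fell from 5.81, 6.47 and 6.15 to 3.82, 3.87 and 3.71 (adjusted p = 4.8e-07, held), near the E1KD mean of 3.39. The signal transducer Smad2 fell by 0.80. Id3, a target that inhibits basic helix-loop-helix factors, read 6.98, 6.07 and 5.67 in NMuMG and 9.70, 9.28 and 8.10 in M1P (2.79, adjusted p = 0.000493, held), and Id1 rose by 0.86. Ltbp1, which anchors latent TGF-beta in matrix, rose by 1.02.

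Of 29 Wnt pathway genes, 5 rose and none fell, where 7.28% of all genes rose and 4.56% fell. Wnt10a, a secreted ligand, read 5.68, 5.76 and 4.67 in NMuMG and 10.42, 9.96 and 8.27 in M1P, an 18.1-fold higher signal (4.18 ± 0.46 SE, limma adjusted p = 5.8e-05, held). E1KD was at 4.68 and the lung lines at 6.96 and 7.18. Wnt4 (1.79) and Wnt9a (0.80) are ligands as well and Fzd1 (1.08) is a receptor; in these the M1P arrays ran from 8.64 to 6.58, 5.21 to 4.18 and 5.67 to 4.41, with array 3 lowest. None of the 3 held. Axin2, a feedback gene of the pathway that the naming rule did not pick, rose by 0.56 and is named to complete the count. In the ErbB list of 19, the receptor Erbb3 rose by 1.65, Egfr fell by 1.28 and the phosphatase gene Dusp4 rose by 0.96. None of the 3 held, and other Egfr probe sets differed by -1.84 to 0.32. Erbb3 arrays overlapped, with M1P array 3 at 6.33 and NMuMG array 2 at 6.39, and with M1P array 3 alone the difference was 0.56 (limma adjusted p = 0.367). Among 15 TEAD and Yap target genes, Tead4 fell by 1.08 and Ankrd1, a classical Yap target, by 0.81, beside the large rise of Tead2.

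Lists of chaperone genes had medians above those of all genes in each of the 3 M1P arrays. Of 13 small heat shock and heat shock protein genes, 5 rose and none fell, with medians of 0.71, 0.48 and 0.65 in M1P arrays 1, 2 and 3 against all-gene medians of 0.25, 0.05 and 0.01. Apart from Hspb8, Hspa1b, an inducible Hsp70, read 4.06, 4.63 and 3.74 in NMuMG and 7.33, 7.17 and 6.26 in M1P, a rise of 2.78 (limma adjusted p = 1.89e-05). Cryab, the small heat shock protein alpha-B crystallin, rose from 9.13, 9.01 and 8.12 to 11.05, 10.72 and 10.49, and Hspb6 from 6.13, 7.08 and 5.93 to 8.64, 8.27 and 7.48. Bag3, the cochaperone partner of Hspb8, rose by 1.64 and was named after its value was seen. Hspb8, Hspa1b and Cryab held, and Hspb6 and Bag3 did not. Hsp90aa1 went the other way in M1P array 1 and was not called.

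Of 24 genes of the unfolded protein response and the chaperones of the endoplasmic reticulum, 8 rose and none fell. The all-gene shares were 7.28% and 4.56%. This response raises folding capacity when unfolded proteins build up in that compartment, and its Xbp1 and Atf6 arms act through a shared promoter element. The list median was 0.55, with 0.64, 0.56 and 0.47 in the M1P arrays, while the E1KD arrays had medians between -0.07 and 0.21. Sdf2l1, part of a chaperone complex in the lumen, read 8.72, 8.52 and 8.31 in NMuMG and 10.07, 9.64 and 9.54 in M1P (1.24 ± 0.20 SE, adjusted p = 0.00138). Manf, a secreted stress protein, read 10.96, 10.97 and 10.92 against 11.60, 11.74 and 11.93 (0.81 ± 0.11, adjusted p = 0.00039). These were the 2 that held, and both were above E1KD. Dnajb11, a cochaperone of BiP, rose by 0.69 with M1P arrays within 0.06 of each other, and Herpud1, of the degradation machinery, by 1.06. Pdia6, Creld2, Xbp1 and Ppp1r15a complete the 8 and were named after their values were seen; they rose by 0.63, 0.55, 0.56 and 0.66. Hspa5, which encodes BiP, read 11.75, 11.91 and 12.09 in NMuMG and 11.46, 12.74 and 12.84 in M1P and was not called (adjusted p = 0.321). Hsp90b1, the endoplasmic reticulum Hsp90, read 8.12, 10.26 and 11.68 in M1P against 10.40 to 11.30 in NMuMG. In both genes M1P array 1 was the lowest array, and with array 3 as the only M1P array 5 members of the list rose.

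The endoplasmic reticulum stress element was looked for in RefSeq promoters of GRCm38.p6, from 250 bases before to 50 bases after each gene's start, as CCAAT, 9 bases of any kind and CCACG, on either strand. It was present in 39 of 32851 promoters (0.119%), in 6 of 21 promoters of the list (Hspa5, Hsp90b1, Dnajc3, Pdia6, Creld2 and Syvn1) and in 2 of the 7 of members that rose. Those 2 promoters are shown because their genes rose together and carry the element; capitals mark the match. The Pdia6 promoter is chr12:17266339-17266638, plus strand, with the match on the gene's strand, its first base at -98 from the start. The Creld2 promoter is chr15:88819396-88819695, plus strand, with the match on the opposite strand, from -126.
Pdia6: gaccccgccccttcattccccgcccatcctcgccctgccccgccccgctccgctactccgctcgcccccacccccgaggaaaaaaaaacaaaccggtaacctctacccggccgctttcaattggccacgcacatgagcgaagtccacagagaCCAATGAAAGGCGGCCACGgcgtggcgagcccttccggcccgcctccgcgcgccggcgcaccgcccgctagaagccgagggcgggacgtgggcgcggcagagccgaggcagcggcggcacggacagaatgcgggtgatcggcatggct
Creld2: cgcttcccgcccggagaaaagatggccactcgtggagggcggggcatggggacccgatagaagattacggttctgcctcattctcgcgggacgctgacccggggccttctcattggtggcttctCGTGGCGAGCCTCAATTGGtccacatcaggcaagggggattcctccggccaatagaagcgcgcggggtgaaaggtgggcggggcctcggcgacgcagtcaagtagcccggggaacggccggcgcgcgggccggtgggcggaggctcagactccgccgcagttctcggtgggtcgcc
Pdia6 read 10.29, 10.08 and 10.06 in NMuMG and 10.72, 10.98 and 10.63 in M1P (limma adjusted p = 0.0253), and Creld2 9.59, 9.56 and 9.63 against 10.31, 9.95 and 10.18 (adjusted p = 0.0463). In both genes every M1P array lay above every NMuMG array. Carriers of the element were not uniform, since Hspa5, Hsp90b1, Dnajc3 and Syvn1 were not called. The core of the heat shock element, searched as GAA, 2 bases of any kind, TTC, 2 bases of any kind and GAA, on either strand, was present in 198 of the promoters (0.603%), in 1 of 9 promoters of the heat shock list (Hsph1) and in 0 of the 4 of members that rose. It does not occur in the Pdia6 or Creld2 promoter shown, and a match or its lack describes these letters only.

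Genes of MHC class I presentation rose in 4 of 14 measured members and fell in none, where 7.28% of all genes rose. H2-D1 read 5.53, 6.09 and 4.46 in NMuMG and 9.48, 8.69 and 8.12 in M1P, a 10.6-fold higher signal (3.40 ± 0.36 SE, limma adjusted p = 4.18e-05). H2-K1 read 6.01, 6.41 and 5.22 against 9.39, 8.71 and 8.05, and H2-M3, a nonclassical molecule, 4.35, 4.43 and 4.71 against 7.63, 6.69 and 6.42. All 3 held, and the heavy chain genes share sequence, so their probe sets may read one another's messages. E1KD means were 7.18 and 7.23 for H2-D1 and H2-K1, and those of L2P 9.20 and 9.05. Tap1, the peptide transporter subunit, rose by 0.61 to 5.61, 5.31 and 4.70, and M1P array 3 lay at the upper NMuMG value of 4.70, so the call did not hold. The list medians of 0.77, 0.08 and 0.16 in arrays 1, 2 and 3 show how far the remaining members depended on array 1. Interferon-stimulated genes gave 5 rises and no fall in 27: Bst2 (1.49), Ifi27 (1.47), Oasl1 (0.97), Irf7 (0.79) and, outside the naming rule, Irf1 (0.66). None held, and in Ifi27 the M1P arrays read 9.20, 8.50 and 8.06 against 7.05 to 7.20 in NMuMG. Ptprc, the pan-leukocyte marker, was at 2.36 to 2.65 in NMuMG and 2.39 to 2.56 in M1P, at the floor in all 6 arrays, while Fcgr3 and Tyrobp, also leukocyte markers, rose by 0.89 and 0.53.

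Cytokine and receptor genes were called in both directions, 4 higher and 7 lower of 33. Il1rn, the interleukin 1 receptor antagonist, read 4.46, 4.38 and 3.96 in NMuMG and 6.40, 6.51 and 6.39 in M1P. Its rise was 2.17 ± 0.17 SE (limma adjusted p = 2.65e-06), with the M1P arrays close together. Other Il1rn probe sets rose by 0.60 and 0.55. Ccl2, a monocyte chemoattractant, fell from 12.11, 11.98 and 12.14 to 10.17, 10.11 and 10.06, and Il18 from 6.84, 6.75 and 7.03 to 5.20, 4.56 and 5.20; both held. Cxcl3, a neutrophil chemoattractant, read 2.61, 2.77 and 2.86 in NMuMG and 8.53, 7.90 and 4.86 in M1P, with E1KD and L1P at the floor and L2P at 9.04. Il11 (1.38) and Lif (0.97), both of the interleukin 6 family, rose and Il33, an alarmin, fell by 1.52 without holding. Ccl9 (-1.05), Csf2 (-0.63) and Csf3 (-0.65) are outside the naming rule and complete the falls with Ackr3.

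In the list of S100, cysteine-rich LIM and galectin genes, 4 of 21 rose and 4 fell. Beside Crip1 and Crip2, Csrp1 rose by 1.13 and S100a4 by 0.58. Lgals4, a galectin of epithelial surfaces, read 12.17, 12.30 and 12.26 in NMuMG and 9.0, 8.46 and 6.97 in M1P, a 17.2-fold lower signal that held. S100a8 and S100a9, the calprotectin subunits, fell by 2.53 and 3.51, with M1P array 3 highest in both (7.54 and 5.70), and S100a14 fell by 1.08. Among 9 connexins and pannexins, the connexin gene Gjc1 rose by 2.07 (3.81 in a dimmer probe set) and held, and Gja1, the most widely expressed connexin gene, fell from 10.92, 11.11 and 11.40 to 6.92, 8.93 and 9.26. Panx1 rose by 0.77 and Gjb1 fell by 0.96.

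Metabolic lists had large changes in single members and calls in both directions, where 7.28% of all genes rose and 4.56% fell. Pfkp, the platelet form of phosphofructokinase, read 4.12, 3.20 and 4.24 in NMuMG and 9.10, 8.89 and 8.12 in M1P. The signal was 28.9-fold higher (limma adjusted p = 2.12e-07, held), and it differed from E1KD by 0.01 (adjusted p = 0.988). Other Pfkp probe sets rose by only 0.73 and 0.21, so the size depends on the probe set. Of 23 glycolysis and hypoxia genes, 3 rose and 3 fell, among them Egln3 (1.24) and Aldoa (0.70) up, and Car12 (-2.22), Aldoc (-1.12) and Ndrg1 (-1.03) down. Of 24 amino acid genes, 5 rose and 4 fell. Slc38a1, a glutamine transporter, went from 3.27, 3.46 and 3.44 to 6.55, 8.35 and 8.14. Its E1KD mean was 8.81, and M1P was below E1KD (-1.13, limma adjusted p = 0.0325). Slc7a5, a leucine transporter subunit, rose by 1.21, with means of 10.68 in E1KD and 10.67 in M1P. Bcat1, a branched-chain aminotransferase, rose from 2.40, 2.42 and 2.51 to 3.34, 3.75 and 3.76, while its E1KD mean was 7.45, so M1P was 3.83 below E1KD. Cbs rose by 1.15, and Gamt, named after its value was seen, by 1.14. Prodh fell by 1.69 and held, and Glul (-1.17), Got1 (-0.64) and Psat1 (-0.38) fell without holding.

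Peroxiredoxin, glutathione and Nrf2 target genes had 5 rises and 2 falls in 29. Apart from the loss of Prdx4 signal, Taldo1 of the pentose phosphate pathway rose by 0.78 and held. Hmox1, heme oxygenase 1, read 8.24, 6.91 and 8.15 against 5.97 to 6.76, and Tkt rose by 0.76, Gpx1 by 0.54 and Txnrd1, outside the naming rule, by 0.34; Gstm5 fell by 0.86. Cholesterol synthesis genes had no rise and 3 falls in 20, Sc5d (-1.41), Hsd17b7 (-1.22) and Pmvk (-1.07), with list medians of -0.18, -0.29 and -0.50 in the M1P arrays. None of the 3 held. Oxidative phosphorylation (2 higher, 2 lower of 34), proteasome (2 and 1 of 29) and cytosolic ribosomal protein genes (1 and 1 of 24) were called about as rarely as genes in general or less, and their calls were between -0.56 and 0.71.

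Growth control genes were called in both directions. Of 34 cell cycle genes, 5 rose and 1 fell, but list medians were -0.49, -0.16 and 0.09 in M1P arrays 1, 2 and 3, so the sign depended on the array. Ccnd1, cyclin D1, rose by 0.69 from signals of 11.95 to 12.16, Plk1 by 1.02, Foxm1 by 0.80, Mcm5 by 0.71 and, outside the naming rule, Ccne1 by 0.47. Bub1b, a spindle checkpoint kinase, fell by 1.08 and was the only one that held. Of 25 p53 targets and cell cycle inhibitors, 3 rose and 3 fell, beside 7.28% and 4.56% of all genes. Cdkn1a, the inhibitor p21, read 10.01, 9.94 and 9.67 in NMuMG and 11.80, 11.36 and 10.90 in M1P (1.48, limma adjusted p = 0.00085, held), and Aen (0.93) and Phlda3 (0.92) rose. Gadd45b fell by 1.52 and held, and Fas (-0.96) and Sesn1 (-0.71) fell. Among 21 stem cell markers, Aldh3a1 (3.52), Sox9 (1.44) and Nes (1.22) rose and none held.

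Among 17 imprinted growth genes, Igf2r, which clears insulin-like growth factor 2, rose from 5.43, 5.88 and 5.24 to 8.49, 9.41 and 8.12. Ndn fell by 1.74 and held; 4 other Ndn probe sets, brighter in NMuMG, differed by -3.95, -4.53, -4.76 and -4.95, and 3 at the floor by -0.08, 0.01 and 0.07. Phlda2 rose by 0.83 without holding. Peg3, a paternally expressed zinc finger gene, read 9.98, 10.02 and 8.96 in NMuMG, 11.17 on average in E1KD and 3.56, 5.22 and 6.85 in M1P. M1P did not overlap NMuMG in spite of its range of 3.29, the fall of 4.45 ± 0.64 held, and the fall from E1KD was 5.96 (adjusted p = 0.000164). L1P and L2P were at 5.29 and 2.85.

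**Figure D3:**
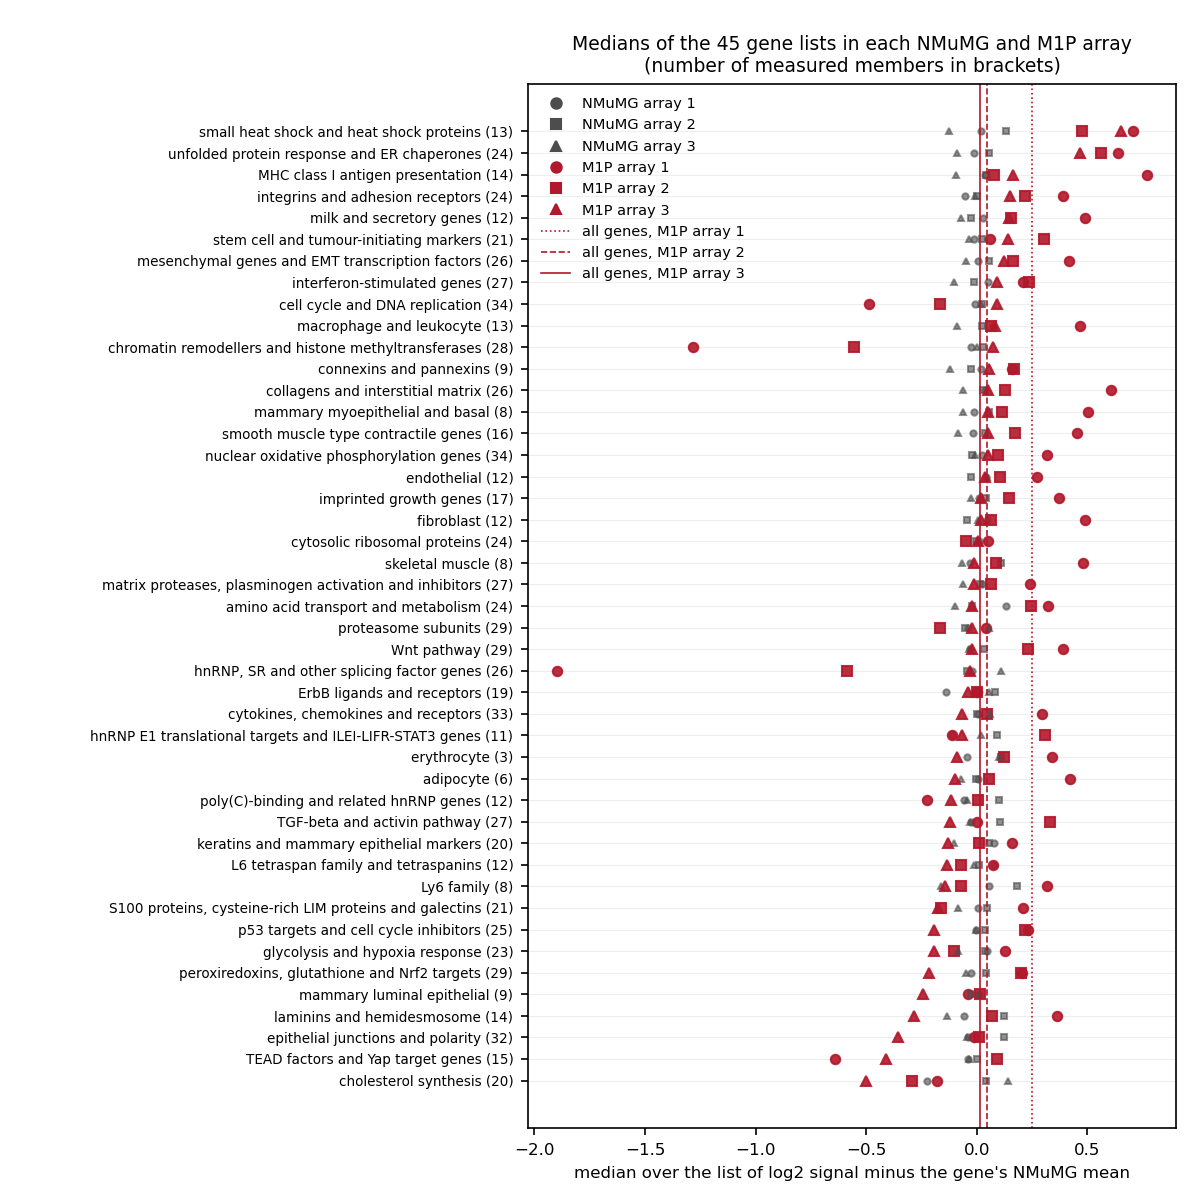
Median of log2 signal minus the NMuMG mean (x axis) over each of the 45 gene lists (y axis, measured members in brackets) in each NMuMG (grey) and M1P (red) array; vertical lines give the medians of all genes in the 3 M1P arrays. The heat shock and unfolded protein lists lie right of the lines in all 3 arrays, while the splicing factor list spreads from -1.90 in array 1 to -0.03 in array 3.

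Some lists separated the M1P arrays from each other rather than from NMuMG. The median of 26 hnRNP, SR and other splicing factor genes was -1.90, -0.59 and -0.03 in M1P arrays 1, 2 and 3. The median of 28 chromatin remodellers and histone methyltransferases was -1.28, -0.55 and 0.07. The Tfrc difference between its ends was lowest in array 1 as well, and its part in these list medians was not tested. Of the 26 splicing factor genes 1 fell, Son (-1.25), and none rose. Of the 28 chromatin genes 4 fell, Chd6 (-1.10), Chd8 (-1.07), Kdm6a (-1.58) and Baz2b (-1.11), and 2 rose, Chd7 (1.02) and Smarca2. Of all genes 4.56% fell and 7.28% rose. The 6 other than Smarca2 did not hold. Smarca2, an ATPase of the SWI/SNF complex, was the exception, at 3.27, 3.16 and 2.51 in NMuMG and 4.65, 6.30 and 5.63 in M1P (limma adjusted p = 0.000965, held).

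The called genes with the widest range over the 3 M1P arrays show the same split. Among rises, Adgrg6, an adhesion G protein-coupled receptor, read 4.06, 6.99 and 6.86 and Pde3b, a phosphodiesterase, 4.46, 7.32 and 7.23. Hs6st2, a heparan sulfate sulfotransferase, read 4.17, 6.35 and 6.93. In these 3 genes M1P array 1 was near the NMuMG signals, which ended at 4.19, 3.93 and 3.19, and arrays 2 and 3 near the E1KD means of 6.93, 7.10 and 7.70. Dynap (6.30, 6.36 and 9.01) and Cyp2c55 (4.40, 5.75 and 7.02) were highest in array 3, and Cxcl3 lowest there. Among falls, Dpy19l1 read 6.19, 9.12 and 9.62, Fem1b 5.94, 9.12 and 8.92, and Dis3, an exosome ribonuclease, 5.13, 7.30 and 8.30. Array 1 was the low one in each, and Cers6, Lgalsl and Peg3 had the same order. Of these 12, Peg3 held and the other 11 did not.

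Markers of the luminal cell and of cell types the host could add were read as lists. Over all genes 7.28% rose, so 1 rise in 12 markers is near the general share. Of 9 measured luminal markers, 1 rose (Epcam) and none fell, and the log2 of their summed signal was 15.65 to 15.67 in NMuMG and 15.49 to 15.63 in M1P. Fibroblast markers had 1 rise in 12 (Twist2), and their log2 summed signal was 7.36 to 7.49 in NMuMG and 7.77 to 8.67 in M1P. The highest value was that of array 1, where Col1a2 read 6.46 against 4.60 and 4.49 in arrays 2 and 3. Pdgfra, Dcn and Lum were at 2.55 to 4.30 in M1P and 2.56 to 4.01 in NMuMG. Endothelial markers had 1 rise in 12, Flt1 (1.33; 1.15 to 2.82 in its 3 other probe sets), with Pecam1 at 2.85 to 3.09 in all 6 arrays and log2 sums of 8.17 to 8.34 against 8.74 to 8.86. Macrophage and leukocyte markers had 2 weak rises in 13, Fcgr3 (0.89) and Tyrobp (0.53), with sums of 10.94 to 11.20 against 10.61 to 11.32; most of that signal is Cd14, at 10.77 to 11.07 in NMuMG and 10.38 to 11.10 in M1P. Myoepithelial markers had 1 rise in 8, Acta2, with sums of 7.15 to 7.26 against 7.53 to 7.94. Adipocyte (6 measured), skeletal muscle (8) and erythrocyte markers (3) had no call. For the collagen, MHC class I and cytokine genes above, the part of host cells was not tested. Ptprc, Pecam1 and Lum were at the floor in each M1P array, while Twist2, Flt1, Fcgr3 and Tyrobp of the same lists rose.

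Some genes that had changed in E1KD changed the opposite way in M1P, with M1P arrays that overlapped NMuMG arrays. There were 460 among the 1181 genes that fell in E1KD and 135 among the 546 that rose there, of 18193 tested. The step back used all 3 M1P arrays, which spread more than those of any other line. Of these genes, 5 per direction are named. They were picked because E1KD differed from both lines and because the M1P and NMuMG arrays overlapped, so the return is set by the choice. Both steps share the E1KD arrays, and a difference from NMuMG that does not pass the test does not show equal levels. Gjb5, a connexin gene of stratified epithelia, read 8.26, 7.81 and 8.12 in NMuMG, 4.62 on average in E1KD and 8.63, 8.23 and 8.12 in M1P. Zfp764 read 7.57, 7.50 and 7.57, 5.30 and 7.75, 7.47 and 7.31 in the same order. AW112010 averaged 6.01 in E1KD and read 8.82, 8.82 and 8.49 in M1P against 8.63 to 9.37 in NMuMG. In Cebpa, a factor of differentiation, and Slc7a7, an amino acid transporter subunit, M1P array 3 (5.17 and 5.69) lay nearer to E1KD (4.71 and 4.89) than arrays 1 and 2 did. In the other direction, Gatm, an enzyme of creatine synthesis, was at 7.41 in E1KD. It was at 2.40 to 2.53 in M1P, which overlapped the NMuMG range of 2.42 to 2.74. Eprn averaged 6.0 in E1KD and 3.75 in M1P, and Mfap3l 5.96 and 3.32. Elmod1 (6.89 in E1KD) read 2.64, 3.85 and 4.69 in M1P and Neto2 (7.86) read 4.50, 4.99 and 7.15, with array 3 the highest in both.

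The genes that set M1P apart from all 4 other lines, besides Ly6e, Ctsh, Defb41 and Col6a1, were led by Irx3 and Stra6. Irx3, a homeobox factor, read 8.34, 7.93 and 7.47 in M1P and 4.52, 5.13 and 4.74 in NMuMG, with means of 4.88, 4.35 and 4.28 in E1KD, L1P and L2P. Stra6, the membrane receptor for retinol-binding protein, read 8.57, 8.40 and 6.83 in M1P against means of 4.36 to 4.98 in the other lines. Hsf2bp (8.34, 7.79 and 6.86) and Calml4 (8.29, 8.14 and 6.60) were similar, and all but Calml4 held against NMuMG. Array 3 was the lowest M1P array in each of these 4 and stayed above every array of NMuMG. The genes that were lowest in M1P leaned more on array 1. Scel, of the cornified envelope, read 4.15, 4.62 and 5.33 against 7.12 to 8.03 in NMuMG and held. Atp7a, a copper transporter, read 3.26, 3.77 and 5.74, Mbtps2, the site-2 protease, 4.13, 5.80 and 6.83, Med14, a Mediator subunit, 4.28, 6.48 and 7.45, and Tia1, an RNA-binding protein of stress granules, 4.17, 5.62 and 6.40. In these 4 array 3 lay 0.74 to 1.01 below the NMuMG mean, the calls did not hold, and M1P did not differ from E1KD past the test with array 3 alone (adjusted p from 0.0665 to 0.346).

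The genes that rose in M1P were unevenly spread over the genome. This description was chosen after values were seen, among 20 chromosomes, and carries no test. On chromosome 5, 217 of 1130 tested genes rose (19.2%) and 16 fell, and on chromosome 7, 235 of 1420 rose (16.5%) and 25 fell. On all chromosomes other than 5 and 7, 869 of 15581 rose (5.58%). With M1P array 3 alone the shares were 8.05%, 7.96% and 2.80%. Over genes with a mean log2 signal of at least 7 (6434 of 18131 genes with a chromosome), the medians against NMuMG on chromosome 5 were 0.49, 0.48 and 0.36 in M1P arrays 1, 2 and 3, and 0.19, 0.07 and 0.17 in the E1KD arrays. In array 3, 85.2% of these chromosome 5 genes read above the NMuMG mean. On chromosome 7 the medians were 0.57, 0.44 and 0.28. Chromosome 3 went the other way, with 114 of 921 genes lower (12.4%) and 31 higher. Its medians were -0.82, -0.40 and -0.32, where E1KD had -0.20 to -0.25 and the lung lines -0.21 to -0.39. Chromosomes 19 (-0.29) and 17 (-0.27) had similar medians in M1P array 3. In M1P array 1 the X chromosome (-1.09) and chromosome 1 (-0.81) were as low or lower, and X was at -0.42 in array 2. Of the other chromosomes, those besides 5 and 7, array 3 medians were between -0.32 and 0.22.

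**Figure D4:**
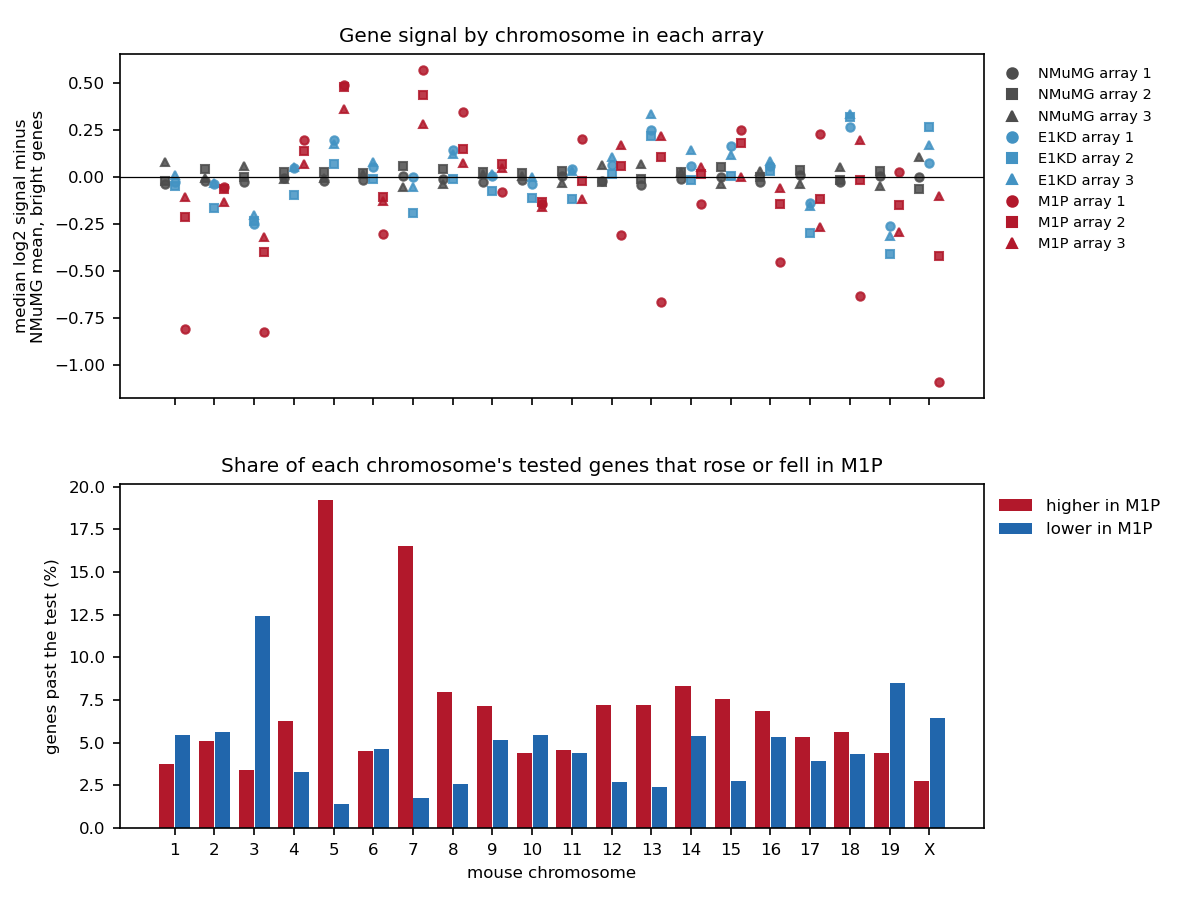
Upper panel: median log2 signal minus the NMuMG mean over genes with a mean signal of at least 7 (y axis) by mouse chromosome (x axis) in each NMuMG, E1KD and M1P array; lower panel: percent of tested genes that rose (red) or fell (blue) in M1P. Chromosomes 5 and 7 have the tallest red bars, 19.2% and 16.5%, and chromosome 3 has a blue bar of 12.4%.

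The shift on chromosome 5 ran along its whole length in M1P arrays 2 and 3. In consecutive windows of 25 genes, the median was above 0 in 17 of 17 windows in both arrays. It was between 0.24 and 0.55 in array 3, and above 0 in 11 of 17 windows in array 1. Other lines shared the shift in some windows and not in others. In window 6 E1KD arrays had 0.37, 0.56 and 0.44 and lung arrays 0.22 to 0.60, against 0.28 and 0.34 in M1P arrays 2 and 3. In window 10 E1KD had 0.03, -0.15 and 0.02 and lung arrays -0.18 to 0.22, against 0.86 and 0.41. On chromosome 7 the shift was larger toward the end: windows 13 to 17, from Ampd3 to Ccnd1, had medians of 0.78, 0.61, 0.57, 0.54 and 0.72 in array 3. E1KD arrays were also above NMuMG in window 13 (0.42, 0.65 and 0.62), while in window 17 they had 0.15, 0.00 and 0.11. The lung lines were at 0.37 to 0.70 in window 17, at 0.67 to 0.73 in window 16 and at 0.71 to 1.12 in window 13. M1P array 1 was at -0.72 in window 13 and above 0 in windows 14 to 17. Of the 209 genes named by rule, 27 are on chromosome 7, which holds 1420 of the 18131 genes with a chromosome. In its last window are 9 of the 27, namely Sigirr, Cd151, Ctsd, Tspan4, Cd81, Ccnd1, Irf7, Taldo1 and Phlda2. Since 194 of the 209 were called, and most were named for that, a chromosome with many rises supplies more of them. All 13 windows of chromosome 3 were below 0 in M1P arrays 2 and 3. Copy number was not measured, and its part in these shifts was not tested.

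**Figure D5:**
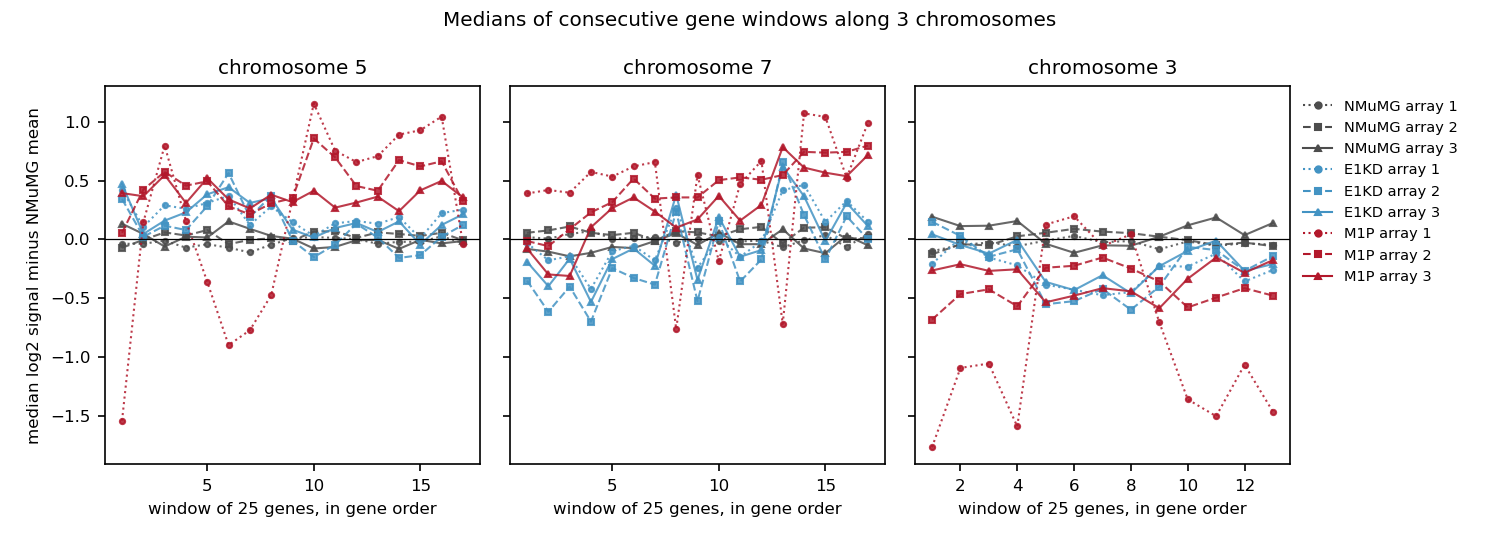
Median log2 signal minus the NMuMG mean (y axis) in consecutive windows of 25 genes in gene order (x axis; the last window of each chromosome holds 31, 49 and 38 genes) along chromosomes 5, 7 and 3 in each NMuMG, E1KD and M1P array. M1P arrays 2 and 3 stay above 0 along chromosome 5 and below 0 along chromosome 3, and M1P array 1 swings widely between windows.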

How the data were processed

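RNA of 15 samples, 3 from each of 5 lines, was measured on Affymetrix mouse arrays. The authors deposited 1 table of log2 signals. Per the submitters' processing notes, RMA, MAS5 and Affymetrix Expression Console were used, without a stated role, so which step made the values is not given in the sources used here. Of 45101 probe sets, 64 controls were left out, 34741 were named through Entrez identifiers (RefSeq, GRCm38.p6) and 204 by the platform's symbol; 932 with several symbols and 9160 with none stayed unnamed. Each of 18193 genes was read by the probe set with the highest mean over the 15 arrays, which matters for the 9010 genes with more than 1. Values were not normalized again. limma 3.58.1 (R 4.3.3) fitted 1 mean per line over 15 arrays (10 residual and 2.98 prior degrees of freedom), with Benjamini-Hochberg adjustment over all genes and a threshold of 0.05; ± is limma's moderated standard error (SE). Tested on simulated data with each line's own spread, the model of 15 arrays recovered planted changes but called more unchanged genes than its threshold allows. With 3 arrays against 3 an exact permutation test cannot go below p = 0.1, so none is given. Genes were named by rule: 9 fixed genes of the hnRNP E1 and transition literature, the 12 rises and 12 falls with the widest gap, up to 4 rises and 4 falls per list, the 6 per direction with the widest M1P range, 5 per direction that returned from E1KD, and 8 per direction apart from every other line. The 45 lists (37 pathways, 8 cell types, 837 genes measured of 898) and the members were chosen with earlier results of these data known. Array number limits the precision. Alternatives tried were only the 6 arrays, M1P array 3 alone, array weights, quantile normalization, another probe set rule, a filter on low signals, a replicate block and leaving out each array.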

Additional observations from a re-analysis of the deposited data

Results flagged for a closer look

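Probe sets without a single gene symbol took no part in the comparisons above, and some of them separated M1P from NMuMG. Of 10092 such probe sets, 202 passed an adjusted p under 0.05 by limma in M1P with NMuMG (2.00%), 127 higher and 75 lower in M1P. They were looked at because they are signals outside the named genes.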

How the results depend on the processing

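The 2153 calls became 448 with only the 6 M1P and NMuMG arrays and 394 with array weights, and the 992 calls of 2-fold or more became 406 and 377. The weights, which limma stopped estimating before convergence, were 0.161, 0.00493 and 0.436 for M1P arrays 1, 2 and 3, so that fit rested on arrays 1 and 3. Leaving out 1 array at a time gave 1134 (without NMuMG array 3) to 5201 calls (without M1P array 3) and 728 to 2588 of 2-fold or more. With M1P array 3 as the only M1P array there were 1466 and 824 calls; quantile normalization gave 2045, the probe set with the largest variance 2094 and the filter on low signals 2124. A replicate block gave 2995 calls and 1179 of 2-fold or more, but deviations of same-numbered M1P and NMuMG arrays correlated at -0.04, 0.30 and 0.55, so the numbers were not taken as pairs.

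Of 194 named genes that were called, 193 kept their direction in every alternative that gave a value (Epcam did not), 125 kept the call without each array in turn and 59 kept it in every alternative. Among named genes that were not called, with M1P array 3 alone the difference from NMuMG reversed to 0.13 in Cdh2, 0.0909 in Elmod1, -0.10 in Eprn, -0.98 in Slc7a7 and 1.57 in Neto2. Leaving out 1 array at a time gave -0.43 to 0.27 in Cdh2, -0.34 to 0.0284 in AW112010, -0.16 to 0.0619 in Zfp764, -0.43 to 0.61 in Cebpa, -0.25 to 0.76 in Slc7a7 and -0.84 to 0.49 in Neto2, so the sign of these 6 differences depended on the array left out. Quantile normalization gave 0.0205 in Cebpa and 0.0272 in Zfp764, array weights -0.45 in Slc7a7 and 0.75 in Neto2, and the other probe set rule -0.10 in Epcam; the cause was not tested.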
